A study of Mus musculus with 4 samples.

Results

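The transcripts of 39 DNA replication genes were followed in 4 poly(A) RNA libraries of cultured mouse AGM (aorta, gonad and mesonephros), the part of the embryo in which definitive blood stem cells arise. The genes were a list set by name, from origin licensing to chromatin assembly behind the fork, and each was matched by its symbol. All 39 were found among the 49997 genes of the count tables, and all 39 were counted deeply enough to be tested, with 325 to 10782 reads per gene and library. Both groups were C57BL/6J explants held for 48 hours on membrane filters in hydrocortisone-supplemented medium, 2 libraries untreated and 2 with 5 µM CCCP for those 48 hours. CCCP is a protonophore that dissipates the proton gradient across the inner mitochondrial membrane, and the stated purpose was to ask how mitochondrial activity bears on the maturation of embryonic blood stem cells. Embryos are given as E10.5 in the study design and as E10.5 and E11.5 in the culture protocol. Nothing in the labels says how many embryos went into a library or whether libraries of a group came from separate cultures, so every p-value measures the spread between these libraries, which may be technical.

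Replication starts at origins marked by the origin recognition complex, onto which Cdc6 and Cdt1 load the ring of Mcm2 to Mcm7 during G1. Cdc45 and the GINS complex join that ring to make the active helicase, primase and the polymerases copy the strands behind it, and Pcna, loaded by replication factor C, tethers the polymerases to the template. Many of these genes are transcribed as cells enter S phase under the control of E2F factors, so their summed transcripts are a common gauge of how much of a tissue is cycling. In explant RNA, fewer cells in S phase and less replication RNA per cell cannot be told apart.

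The tissue in the libraries was mixed. The labels call the cells embryonic stem cells of blood, while the extraction protocol names whole explants. Kit, the stem cell factor receptor, had a CPM (the read count scaled to library size with TMM factors) of 47.6 to 63.2, and Ptprc, the pan-leukocyte antigen, had 3.39 to 6.85 CPM. Markers of mesenchyme, endothelium and the mesonephros, 10 of each, were all counted in every library. Total counts ran from 37360968 to 48827826, with replicate 1 the deeper library in each group. The count column of untreated replicate 1 is headed UM1 although the sample is titled UN, and it was assigned by the deposit's own link of file to sample.

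No replication transcript passed the test of CCCP against untreated explants, which was edgeR's quasi-likelihood fit adjusted by Benjamini-Hochberg over 19837 genes. The count past an adjusted p of 0.05 was 0 of 39, against 0.0% of all genes tested, and the smallest adjusted p among the 39 was 0.289. At an unadjusted p under 0.05 there was 1 of the 39, Pola1, against 14.6% of all genes. DESeq2 called 0 of the 39 as well, against 2.99% of all 19837 genes, of which it gave 17914 an adjusted p. Without the filter on low counts edgeR called 1 of the 39, Pola1, against 3.43% of all genes, with the replicate number as a block it called 3 against 10.7%, and with the block and the trend on exon length removed it called 1 against 5.67%. With 1 library left out, where the lone library of a group is assumed to vary like the other group, it called 0 of the 39, against 0.0491% (untreated replicate 1 left out), 0.214% (untreated replicate 2), 0.13% (CCCP replicate 1) and 0.162% (CCCP replicate 2) of all genes. The median log2 fold change of the 39, CCCP over untreated, was 0.13, beside -0.0077 for all genes tested. It was positive for 33 of the 39, against 49.2% of all genes, but for 29 when libraries were scaled by total counts only, and for 8 without untreated replicate 1, where the median was -0.12. Without untreated replicate 2 it was positive for 37 and the median was 0.57.

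Untreated replicate 1, the library with that header, was the lowest of the 4 libraries for 37 of the 39 transcripts, while it was the lowest for 31.7% of all genes tested. Pola1 and Rfc1 were the exceptions, with their lowest value in CCCP replicate 1. The highest value lay in untreated replicate 2 for 22 transcripts and in CCCP replicate 2 for the other 17. Both CCCP libraries fell between the untreated ones for 20 of the 39, which was so for 29 of 53 other replication genes and for 14.2% of all genes.

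The groups overlapped for 34 of the 39 transcripts. The CCCP values were both higher than the untreated ones for Fen1, Ccne1 and Pold1, and both lower for Pola1 and Rfc1. Those 5 make up 12.8% of the list, while the groups did not overlap for 48.8% of all genes tested (24.0% higher and 24.8% lower in CCCP). Without 1 library the groups did not overlap for 25 of the 39 (untreated replicate 1 left out, against 73.9% of all genes), 39 (untreated replicate 2, 80.3%), 19 (CCCP replicate 1, 74.1%) or 5 (CCCP replicate 2, 67.6%). The smallest two-sided p that an exact permutation test of 1 transcript could reach here is 0.333, so none is given.

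**Figure D1:**
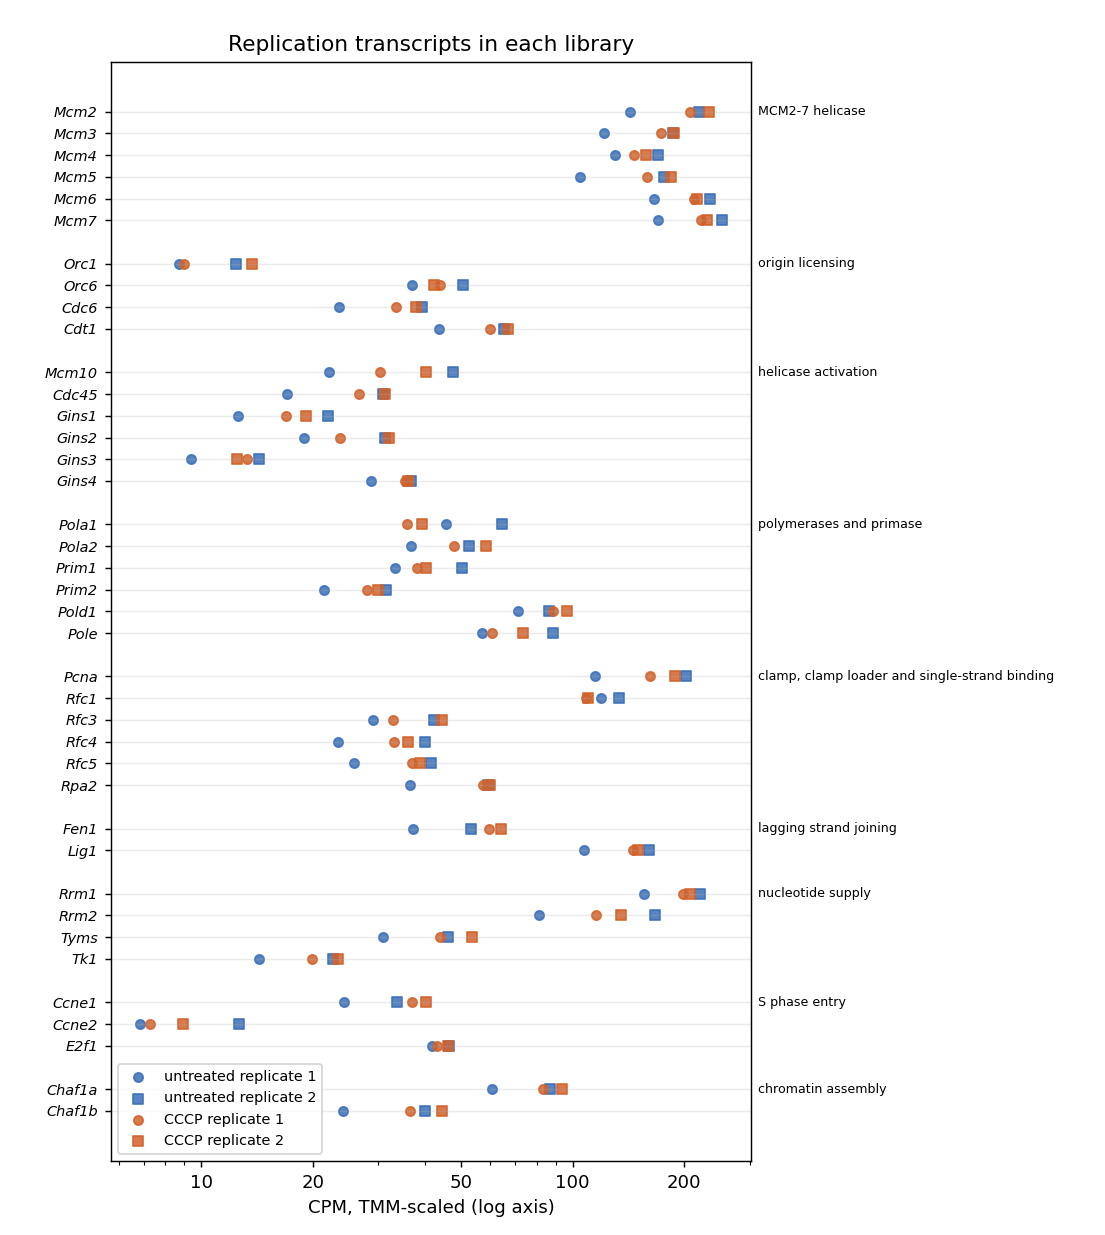
CPM of each of the 39 replication transcripts (log axis) in the 4 libraries, ordered by role; blue points are untreated, orange CCCP, circles replicate 1 and squares replicate 2. The blue circle is the leftmost point in 37 rows, and the orange points stand between the blue ones in 20 rows.

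Most promoters found for the set held a sequence feature that the choice of genes did not use, as did many promoters of other replication genes. Promoter windows of 300 bases (250 before to 50 after the RefSeq start, build GRCm38.p6) were found for 32 of the 39 genes, with 36 windows in all. They were searched on both strands for an E2F-type motif in any of 4 forms: the first was TTCCCGC, another was TTCGCGC, another was TTGCCGC and the last was TTGGCGC. A match stood in at least 1 window of 21 of the 32 genes (65.6%), against 10.9% of the 27025 genes with such a window in the table. Of the 43 other replication genes with a window 53.5% held it, and of the 35 mitosis genes with a window 22.9%. The CHR motif of mitotic promoters, searched as TTTGAA or TTCGAA, stood in 18.8% of the 32 genes of the set, 77.1% of the mitosis genes and 21.7% of all genes. CCAAT was found in 59.4%, 74.3% and 41.1% of them. The median log2 fold change was 0.13 for the 21 genes with an E2F match and 0.23 for the 11 without. Untreated replicate 2 stood above untreated replicate 1 by a median log2 ratio of 0.58 in the first and 0.61 in the second.

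These windows belong to the 4 genes with the smallest unadjusted p among those with a match, shown 5′ to 3′ in the direction of transcription, with the matches in capitals. They lie at chrX:93632106-93632405, chr19:10203872-10204171, chr5:65335590-65335889 and chr7:44548766-44549065, all on the minus strand.
Pola1: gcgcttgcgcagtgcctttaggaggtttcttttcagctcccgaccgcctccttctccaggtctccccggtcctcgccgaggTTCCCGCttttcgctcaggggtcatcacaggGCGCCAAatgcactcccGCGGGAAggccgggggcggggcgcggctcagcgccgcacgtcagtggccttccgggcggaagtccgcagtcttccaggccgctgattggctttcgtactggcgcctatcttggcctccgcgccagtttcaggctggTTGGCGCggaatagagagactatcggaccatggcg
Fen1: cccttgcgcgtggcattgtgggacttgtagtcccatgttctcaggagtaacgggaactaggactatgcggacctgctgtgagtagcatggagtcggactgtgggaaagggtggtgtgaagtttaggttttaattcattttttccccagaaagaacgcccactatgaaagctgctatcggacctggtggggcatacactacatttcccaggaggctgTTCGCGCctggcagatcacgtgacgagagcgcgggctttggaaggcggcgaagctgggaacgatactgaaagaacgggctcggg
Rfc1: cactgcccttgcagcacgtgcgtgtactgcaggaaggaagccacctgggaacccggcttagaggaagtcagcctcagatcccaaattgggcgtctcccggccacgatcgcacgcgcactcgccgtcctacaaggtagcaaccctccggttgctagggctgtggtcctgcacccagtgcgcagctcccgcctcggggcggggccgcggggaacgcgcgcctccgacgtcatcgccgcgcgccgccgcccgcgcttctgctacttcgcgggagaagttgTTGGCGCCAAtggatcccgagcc
Pold1: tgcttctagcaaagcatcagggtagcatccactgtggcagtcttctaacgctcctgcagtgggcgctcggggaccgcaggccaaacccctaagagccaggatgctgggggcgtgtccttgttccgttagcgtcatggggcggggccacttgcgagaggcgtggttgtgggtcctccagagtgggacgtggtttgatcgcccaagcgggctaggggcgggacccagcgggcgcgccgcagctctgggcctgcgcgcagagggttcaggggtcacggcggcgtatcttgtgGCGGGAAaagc
The Pola1 window held 4 matches, that of Fen1 1 and that of Pold1 1. In Rfc1 a single stretch reads as a match on either strand and was counted as 2 overlapping matches. The groups overlapped for the other 17 of the 21 genes with a match.

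The MCM2-7 helicase was among the most abundant parts of the machinery, and all 6 subunits were lowest in untreated replicate 1. The highest library was untreated replicate 2 for 3 subunits and CCCP replicate 2 for the other 3. Mcm2 had 143 and 218 CPM in untreated replicates 1 and 2 and 207 and 233 CPM in CCCP replicates 1 and 2. Mcm5 had 105 and 176 CPM untreated against 158 and 184 CPM in CCCP. Mcm7 had 169.7 and 253 CPM untreated against 222 and 229.6 CPM. In each, untreated replicate 1 was alone at the low end. The log2 fold changes of Mcm2 and Mcm5 were 0.28 and 0.29, with standard errors of 0.213 and 0.247. Mcm3 had 121 and 186 CPM untreated and 173 and 187 CPM in CCCP, a log2 fold change of 0.23. Mcm4, at 129.9 and 170.0 against 146 and 157 CPM, and Mcm6, at 166 and 235 against 213 and 216 CPM, had log2 fold changes of 0.018 and 0.10. The edgeR adjusted p-values of the 6 lay between 0.554 and 0.968. Untreated replicate 2 exceeded replicate 1 by 1.31-fold (Mcm4) to 1.68-fold (Mcm5). Of the 50-base stretches of the longest Mcm7 transcript, 34.2% recur in transcripts of other genes, among them a processed pseudogene (Gm5487) and Ap4m1, so its count is less certain than those of the other subunits.

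Among genes that license origins, untreated replicate 1 was again the lowest library. Cdc6, the loader ATPase, had 23.4 and 39.3 CPM untreated and 33.4 and 37.8 CPM in CCCP, a log2 fold change of 0.19. Cdt1, its partner in loading, had 43.7 and 65.4 CPM untreated against 59.9 and 66.9 CPM, a log2 fold change of 0.22. The groups overlapped in both. Orc1, the ATPase subunit of the origin recognition complex, was the least abundant member per base of exon. It had 8.70 and 12.4 CPM untreated against 8.98 and 13.7 CPM in CCCP, so that same-numbered libraries lay together. Orc6 had 37.0 and 50.6 CPM untreated and 43.9 and 42.5 CPM in CCCP, with both CCCP values inside the untreated range and a log2 fold change of -0.020. The edgeR adjusted p-values of these 4 lay between 0.637 and 0.968.

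Factors that turn the loaded ring into a moving helicase included the widest gap between the untreated libraries. Mcm10, which activates the assembled helicase, had 22.1 and 47.6 CPM untreated, a 2.16-fold gap and the widest of the 39, and 30.3 and 40.4 CPM in CCCP. Its log2 fold change was 0.023 ± 0.356 (SE). Cdc45 had 17.1 and 30.9 CPM untreated against 26.7 and 31.2 CPM in CCCP, a log2 fold change of 0.27. Here too the untreated libraries enclosed the CCCP libraries or nearly did so. Of the 4 GINS subunits, Gins1 had 12.6 and 21.9 CPM untreated against 16.9 and 19.2 CPM, and Gins2 had 19.0 and 31.3 against 23.6 and 32.1 CPM. Gins3 had 9.38 and 14.3 CPM untreated against 13.3 and 12.5 CPM, and Gins4 had 28.7 and 36.7 against 35.4 and 36.1 CPM. The log2 fold changes of the 4 subunits ran from 0.067 (Gins1) to 0.15 (Gins2), all with overlapping groups, and those of Gins1, Gins2 and Gins4 were negative with the length trend removed. The exons of Gins1 share 24.5% of their bases with a predicted gene on the same strand, and those of Gins2 share 11.4% with Gse1 on the other strand. Of the 50-base stretches of the longest GENCODE transcript of Gins2, 70.4% lie in transcripts of Gse1.

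The polymerases and primase held both the lowest fold change of the set and 1 of the 3 transcripts that lay above the untreated range. Pola1 (chromosome X, 93304766 to 93632387, 39 exons) encodes the catalytic subunit of polymerase alpha, which starts each new strand. It had 45.5 and 64.6 CPM untreated and 35.8 and 39.4 CPM in CCCP, or 55.04 ± 13.5 against 37.6 ± 2.59 CPM (SD, n = 2 each). Both CCCP values lay below both untreated values. The log2 fold change was -0.55 ± 0.188 (SE, edgeR adjusted p = 0.289), and it stayed negative, from -0.77 to -0.24, whichever library was left out. Pola2, the accessory subunit of the same enzyme, did not go with it: it had 36.7 and 52.5 CPM untreated and 48.0 and 58.5 CPM in CCCP, a log2 fold change of 0.26. The primase subunits of that complex lay between, with log2 fold changes of -0.086 for Prim1 (33.2 and 50.3 against 38.2 and 40.4 CPM) and 0.13 for Prim2 (21.4 and 31.5 against 28.0 and 29.9 CPM). The difference between Pola1 and its partners was not tested.

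Pold1 (chromosome 7, 44532744 to 44548815), the catalytic subunit of polymerase delta, had 71.1 and 86.4 CPM untreated and 88.8 and 96.7 CPM in CCCP. Its groups did not overlap, though by a small margin, and its log2 fold change was 0.24 ± 0.138 (SE, edgeR adjusted p = 0.466). Pole, the catalytic subunit of polymerase epsilon, had 57.2 and 88.7 CPM untreated and 60.8 and 73.7 CPM in CCCP, both inside the untreated range. Its log2 fold change of -0.12 was 0.046 with the length trend removed. Its exons span 7391 bases, among the longest of the set.

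Among clamp and clamp loader genes, Rfc1 lay apart from its partners before the length trend was removed, but not after. Pcna, the sliding clamp, was the most abundant member per base of exon, with 115 and 202 CPM untreated and 162 and 189 CPM in CCCP. Its untreated libraries differed 1.76-fold and enclosed both CCCP libraries, with a log2 fold change of 0.14. Of the 50-base stretches of its longest GENCODE transcript, 31.8% recur in the processed pseudogene Pcna-ps2. Rfc1 (chromosome 5, 65261852 to 65338617), the large subunit of replication factor C, had 119 and 133 CPM untreated and 109 and 109.9 CPM in CCCP. The groups did not overlap, and the log2 fold change was -0.21 ± 0.116 (SE, edgeR adjusted p = 0.448). The median of all genes in the same of 10 bins of exon length was -0.20, and with the length trend removed Rfc1 stood at -0.024. The small subunits followed the rest of the set. Rfc3 had 29.1 and 42.2 CPM untreated against 32.8 and 44.4 CPM, Rfc4 had 23.4 and 40.1 against 33.0 and 36.1 CPM, and Rfc5 had 25.7 and 41.7 against 36.9 and 38.9 CPM. Their log2 fold changes were 0.12, 0.12 and 0.17, and with the length trend removed -0.027, -0.036 and 0.041. Rpa2, a subunit of the single-strand binding complex, had 36.6 and 59.1 CPM untreated and 57.2 and 59.9 CPM in CCCP, so 3 libraries lay close together and untreated replicate 1 well below them.

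Fen1 and Lig1 finish the lagging strand, the first by cutting the flap of each fragment and the second by sealing the nick. Fen1 (chromosome 19, 10199132 to 10204393) had 37.1 and 53.4 CPM untreated and 59.6 and 64.1 CPM in CCCP, or 45.2 ± 11.48 against 61.9 ± 3.20 CPM (SD, n = 2 each). The groups did not overlap. The log2 fold change of 0.45, the largest of the 39, came with an SE of 0.188 (edgeR adjusted p = 0.344), and it lay between 0.22 and 0.77 when 1 library was left out. An antisense transcript in the GENCODE annotation covers most of the gene. Of the 50-base stretches of the longest Fen1 transcript there, 81.2% recur in transcripts of other genes, and reads of both strands were counted together. Lig1 had 108 and 160.4 CPM untreated and 145 and 149.8 CPM in CCCP, with both CCCP values inside the untreated range.

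Among enzymes of deoxynucleotide supply, Rrm2 had the widest gap between the untreated libraries. Rrm2, the S phase subunit of ribonucleotide reductase, had 81.2 and 167 CPM untreated, a 2.06-fold gap, and 116 and 135 CPM in CCCP. Rrm1, its constitutive partner, had 155 and 221 CPM untreated and 199 and 207 CPM in CCCP, a narrower gap of 1.42-fold. Both CCCP libraries lay inside the untreated range for both subunits. Tyms, thymidylate synthase, had 30.8 and 46.1 CPM untreated and 43.9 and 53.6 CPM in CCCP. Its log2 fold change of 0.34 ± 0.217 (SE, edgeR adjusted p = 0.496) was 0.48 with the length trend removed. Tk1, thymidine kinase, had 14.4 and 22.6 CPM untreated and 19.8 and 23.4 CPM in CCCP, a log2 fold change of 0.23.

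The 3 regulators of S phase entry did not behave alike. Ccne1 (chromosome 7, 38097984 to 38107490), a cyclin that activates Cdk2 at the start of S phase, had 24.2 and 33.6 CPM untreated and 37.0 and 40.4 CPM in CCCP. Its groups did not overlap, and the log2 fold change of 0.42 came with an SE of 0.186 (edgeR adjusted p = 0.362). Ccne2, its paralog, had 6.83 and 12.6 CPM untreated and 7.27 and 8.95 CPM in CCCP, both inside the untreated range. Its log2 fold change of -0.26 was 0.20 with the GC trend removed, and 52.3% of its exon bases overlap Ints8 on the other strand, so its count is uncertain. E2f1 (chromosome 2, 154559400 to 154569892), the activating E2F factor, was the steadiest of the 39 between the untreated libraries. It had 41.9 and 46.4 CPM untreated, a 1.11-fold gap, and 43.2 and 46.2 CPM in CCCP, and its log2 fold change was 0.016 ± 0.123 (SE).

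Chaf1a and Chaf1b, subunits of the complex that deposits histones on new DNA, were lowest in untreated replicate 1 and highest in CCCP replicate 2. Chaf1a had 60.7 and 87.1 CPM untreated and 83.2 and 93.4 CPM in CCCP, and Chaf1b had 24.2 and 40.1 against 36.5 and 44.5 CPM. The log2 fold changes of 0.26 and 0.33 came with standard errors of 0.189 and 0.254, and were 0.029 and 0.020 without untreated replicate 1. For Chaf1a, 18.7% of the exon bases overlap Ubxn6 on the other strand. Of the 50-base stretches of its longest GENCODE transcript, 48.0% lie in transcripts of other genes, mainly Ubxn6. That transcript can hold bases outside the counted exons.

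**Figure D2:**
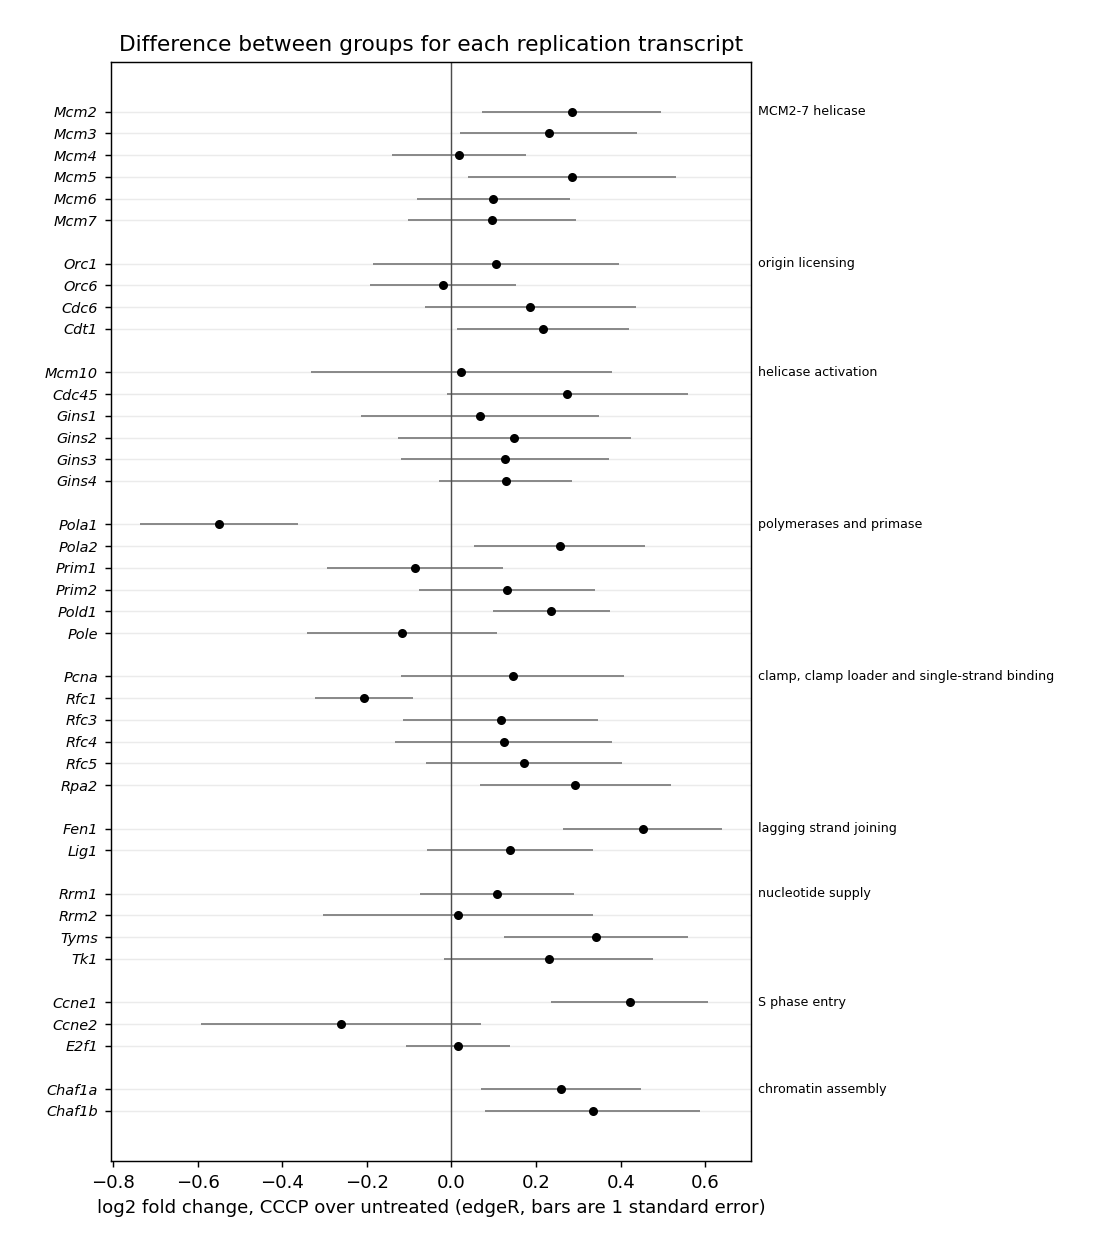
Log2 fold change, CCCP over untreated, of each of the 39 transcripts from the edgeR fit, with bars of 1 standard error, ordered by role. Pola1, at -0.55, is the lowest value and Fen1, at 0.45, the highest, and no transcript passed an adjusted p of 0.05.

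Levels were also compared per kilobase of exon, since longer transcripts collect more reads. On that scale, averaged over the 4 libraries, Pcna led with 132.5 CPM per kilobase, followed by Mcm7 (69.0), Mcm2 (59.4) and Rrm2 (57.2). The 6 MCM subunits lay between 42.0 and 69.0 CPM per kilobase. Cdc45 stood at 10.6 CPM per kilobase, Mcm10 at 8.89 and the GINS subunits between 5.12 (Gins3) and 25.5 (Gins2). The lowest levels were those of Orc1 (1.34), Ccne2 (2.69) and Gins3 (5.12). Neighbours in this order mostly overlapped across libraries: Mcm2 ranged from 42.3 to 69.0 and Rrm2 from 37.3 to 76.6 CPM per kilobase. Pcna, whose lowest library had 91.1, stood above the highest value of every other member, and Orc1, whose highest library had 1.69, below the lowest value of every other member. Exon length here is the union of all annotated exons, so a gene with a rarely used long exon reads too low.

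Untreated replicate 2 stood above untreated replicate 1 for all 39 transcripts, which was so for 50.1% of all genes tested. The median log2 ratio was 0.58, from 0.15 (E2f1) to 1.11 (Mcm10), and 0.0026 over all genes. CCCP replicate 2 stood above CCCP replicate 1 for 37 of the 39, by a median of 0.14, against 0.016 for all genes. Taken within replicate numbers, CCCP over untreated had a median log2 ratio of 0.43 for number 1, positive for 37 transcripts, and of -0.054 for number 2, positive for 17. Replicate 1 was the deeper library in each group. The part of depth in this order was not tested.

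In the other lists of the cell cycle untreated replicates 1 and 2 were again the lowest and the highest library by the median gene. The sum of the 39 transcripts was 2254 and 3371 CPM untreated, against 2932 and 3222 CPM in CCCP. Over 40 mitosis genes the sum was 3132 and 4473 CPM untreated and 3132 and 3612 CPM in CCCP, so the sums of the replicates 1 were level there. By gene they were not: the median log2 ratio of CCCP replicate 1 over untreated replicate 1 was 0.22, positive for 25 of the 40. All 40 were higher in untreated replicate 2 than in replicate 1, with a median log2 ratio of 0.58. Untreated replicate 1 was the lowest library for 24 of those 40 and for 41 of 53 other replication genes, against 37 of the 39 replication transcripts. The median log2 fold change was -0.022 over the mitosis genes, -0.031 over 53 other replication genes, 0.049 over 30 regulators of the passage from G1 to S and 0.0024 over 8 replication checkpoint genes.

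**Figure D3:**
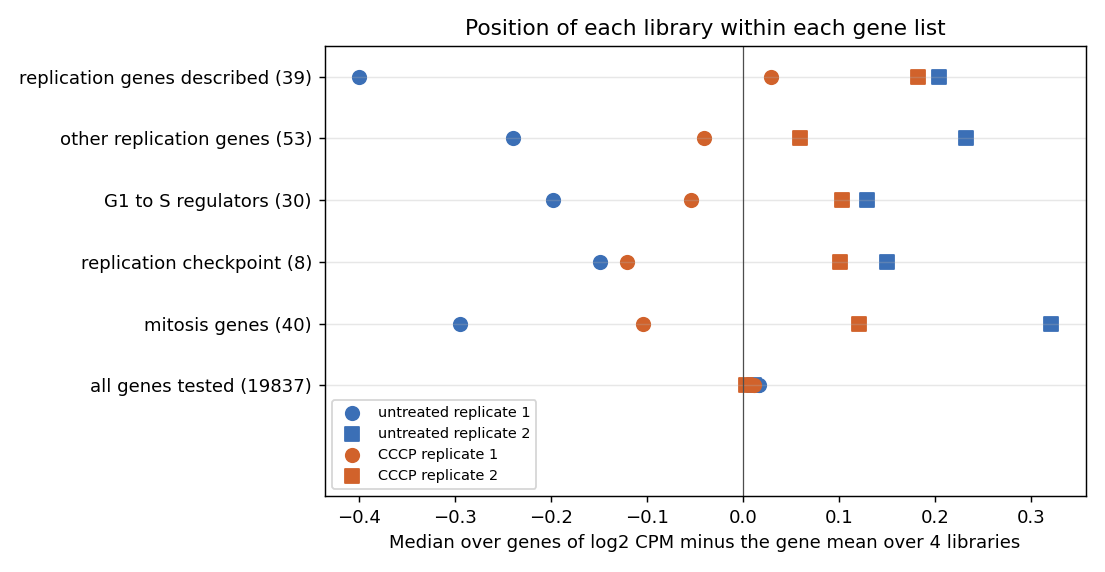
Median over the genes of each list of log2 CPM minus that gene's mean over the 4 libraries (x axis), for 5 lists of the cell cycle and for all genes tested, with the number of genes in brackets; blue is untreated, orange CCCP, circles replicate 1 and squares replicate 2. For the 39 replication genes the untreated libraries stand at -0.40 and 0.20 and the CCCP libraries at 0.029 and 0.18.

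edgeR called 0 genes in each of these 4 lists at an adjusted p of 0.05. At an unadjusted p under 0.05 there were 2 higher and 5 lower of 53 other replication genes, 1 and 1 of 30 G1 to S regulators, 0 and 1 of 8 checkpoint genes and 1 and 7 of 40 mitosis genes, against 5.45% higher and 9.16% lower of all genes. DESeq2 called 1, 0, 1 and 6 of them, against 2.99% of all genes. Among the other replication genes, Rnaseh2c, a subunit of the nuclease that removes ribonucleotides from DNA, had 26.4 and 30.2 CPM untreated and 35.6 and 45.7 CPM in CCCP, and Rfc2, the fifth clamp loader subunit, had 46.9 and 57.5 against 67.1 and 66.5 CPM. Their log2 fold changes were 0.52 and 0.36. Atad5, which unloads the clamp, had 45.0 and 58.9 CPM untreated and 28.8 and 32.2 CPM in CCCP, a log2 fold change of -0.77, and its adjusted p was 0.190 in edgeR, 0.0143 in DESeq2, and in edgeR 0.00087 without the filter on low counts, 0.00214 with the replicate block and 0.0236 with the block once length trends were removed. Orc3 had 84.0 and 93.2 against 66.0 and 67.7 CPM, a log2 fold change of -0.41. None of these 4 had overlapping groups, which their choice by smallest p favoured. Over the whole list the groups did not overlap for 32.1% of genes, against 48.8% of all genes tested.

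Of the regulators, Ccnd3 and Cdk4, a D-type cyclin and its kinase, had log2 fold changes of 0.41 and 0.42, and Rb1, the retinoblastoma protein that holds E2F factors in check, had -0.56. Rb1 had 59.0 and 48.9 CPM untreated and 38.3 and 34.8 CPM in CCCP, with an edgeR adjusted p of 0.223. Tfdp2, a dimer partner of E2F factors, had -0.34. The checkpoint kinase Atr had 58.4 and 62.8 CPM untreated and 34.6 and 36.1 CPM in CCCP, a log2 fold change of -0.78 ± 0.117 (SE). Its adjusted p was 0.144 in edgeR, 0.000499 in DESeq2, and in edgeR 0.000369 without the filter, 0.00133 with the replicate block and 0.0209 with the block once length trends were removed. Etaa1, an activator of Atr, had -0.31, and Rad1 and Rad9a, parts of the checkpoint clamp, had 0.34 and 0.20. At mitosis the named genes were Pttg1 (0.51) and Ccnb2 (0.31) on the higher side and Cenpf (-0.99) and Mki67 (-0.86) on the lower. The groups overlapped for Ccnb2 but not for Pttg1, Cenpf or Mki67. Adjusted p-values of Cenpf and Mki67 were 0.144 each in edgeR and 6.42e-06 and 3.59e-05 in DESeq2. In edgeR without the filter they were 2.01e-08 and 5.11e-06. With the replicate block they were 0.000343 and 0.000767, and with length trends also removed 0.0117 and 0.0148. Those of Pttg1 and Ccnb2 were 0.314 and 0.471 in edgeR, and 0.239 and 0.541 in DESeq2. Exons of the 8 genes named on the lower side in these lists span 4188 (Etaa1) to 11367 (Cenpf) bases, and those of the 8 on the higher side 646 (Rnaseh2c) to 4678 (Rad1) bases.

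Fold changes went with exon length and with GC content over all genes, and with GC content among the 39. Over all genes tested, Spearman's rho between log2 fold change and exon length was -0.35. Over 10 bins of length with near-equal numbers of genes, the median went from 0.22 in the shortest genes to -0.35 in the longest. Across the 39 transcripts, whose exons span 1038 to 8141 bases, rho was -0.12. Of the 39, 26 lay above the median of all genes in their own bin of length. After removal of the length trend the median of the 39 was 0.10 and 26 were positive, beside a median of 0.014 for all genes. The correlation with the GC content of the longest transcript was 0.37 over 17929 genes and 0.52 across the 39. These are correlations across genes that share the same 4 libraries, given as descriptions. Pola1 (41.5% GC) and Ccne2 (36.3%) had the lowest GC content of the 39 and the lowest fold changes, while Fen1 (53.8%), Ccne1 (52.7%) and Pold1 (61.0%) lay above the median of 49.9% for all genes. With the GC trend removed, Pola1 stood at -0.29, Fen1 at 0.33, Ccne1 at 0.32, Pold1 at 0.055 and Rfc1 at -0.13. Untreated replicate 2 exceeded replicate 1 by a median log2 ratio of 0.67 in the 16 transcripts under 2500 bases, of 0.56 in the 17 from 2500 to under 5000 bases and of 0.55 in the 6 of 5000 bases or more.

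**Figure D4:**
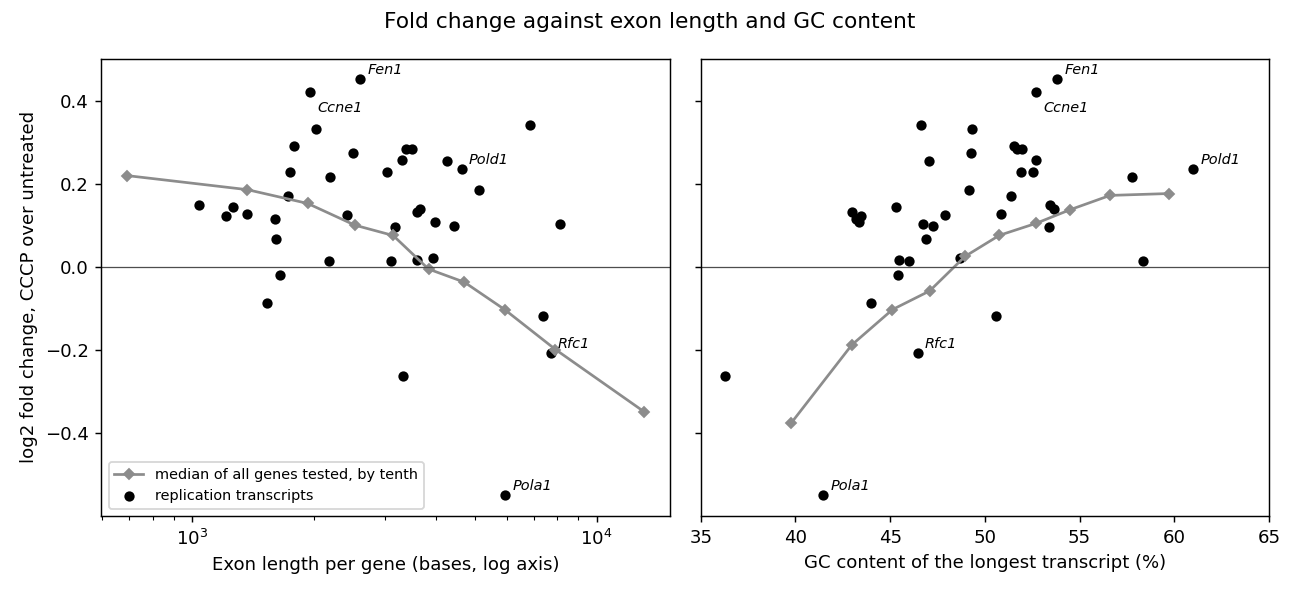
Log2 fold change, CCCP over untreated, against exon length (left, log axis) and against GC content of the longest transcript (right); black points are the 39 replication transcripts, with names for the 5 whose groups did not overlap. Grey diamonds are the median of all genes tested (right, of the 17929 with a GC value) in each of 10 bins of near-equal gene number. The grey line runs from 0.22 to -0.35 with length and from -0.38 to 0.18 with GC content, and Pola1 lies below it in both panels.

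Markers of other cell types differed between libraries as well. The sum of 10 hepatic markers was 965 to 1689 CPM in the untreated libraries and 53.3 to 106.3 CPM in CCCP, all 10 lower in both CCCP libraries, with Ahsg at 0 counts in CCCP replicate 1. The sum of 10 mesenchymal markers was 5603 and 3269 CPM in untreated replicates 1 and 2, against 4743 and 3646 CPM with CCCP. These sums ran in the reverse of the order of the summed replication transcripts, and Col1a1, Col1a2 and Col3a1 had the highest CPM of the 10. By gene, 6 of the 10 were highest in untreated replicate 1, while 2, Twist1 and Tcf21, were lowest there. The 10 markers of mesonephros and gonad summed to 311 and 217 CPM untreated and 301 and 216 CPM in CCCP, again with replicate 1 the higher. The 10 endothelial markers summed to 533 and 705 CPM untreated and 569 and 559 CPM in CCCP. The 10 erythroid markers summed to 2636 and 3242 against 2976 and 5033 CPM, and the 15 blood stem and progenitor markers to 256 and 289 against 221 and 262 CPM. No defining marker of mesenchyme, endothelium, mesonephros or red cells was at 0 in any library. The part of these cell types in the order of the replication transcripts was not tested.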

How the data were processed

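The authors deposited 1 table of raw gene counts per library, made with featureCounts 2.0.3 on mm10 RefSeq exons per the file headers. HISAT2, SAMtools and FastQC are named in the submitters' processing notes. Per the file headers no option for strand, for read pairs as fragments, for multi-mapping reads or for reads on more than 1 gene was set, so counts of overlapping genes and of genes with near-identical copies are uncertain. Of the 39 genes, 12 share exon bases with another gene in that annotation. Exon lengths are also deposited by the authors. Cdc45 is listed on 2 contigs: its level per kilobase uses the 2506 bases of 1 contig, but the fits with the length trend removed used the deposited sum of 4743 bases.

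The main test was edgeR 4.0.16 in R 4.3.3 (glmQLFit and glmQLFTest) on the counts, with TMM scaling, filterByExpr (minimum count 10), the group as the sole term, two-sided, with Benjamini-Hochberg adjustment over all genes and a threshold of 0.05. The standard error is the log2 fold change divided by the square root of F. The script was tested on simulated data. Alternatives were DESeq2 1.42.0, other scaling and filters, each library left out, the replicate number as a block, and trends on exon length or GC content (longest GENCODE M21 transcript) removed. The 39 genes, the other lists and the marker lists were chosen with earlier results of these data known. All 39 are described. In each of the 4 other lists the 2 genes with the smallest p in each direction are named. A CPM value of 3 counts, the floor, was 0.0599 to 0.0826. Such floors cover counting error only.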

Additional observations from a re-analysis of the deposited data

How the results depend on the processing

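Genes past an adjusted p of 0.05, 0 in edgeR, numbered 594 in DESeq2, 1107 without a filter on low counts and 10 to 46 when 1 library was left out. Of the 39 replication genes, Pola1 alone was called without that filter (adjusted p 0.0389, against 3.43% of all genes), and 0 were called in DESeq2, under other scaling, with the length or GC trend removed, or with any 1 library left out. Of the other lists, DESeq2 called 1 of 53 other replication genes, 1 of 8 checkpoint genes and 6 of 40 mitosis genes, against 2.99% of all genes. Without the filter the calls were 1, 1 and 7, and 1 of 30 G1 to S regulators, against 3.43%. Leaving out 1 library gave 0 to 1 for the mitosis genes. The cause of these changes was not tested.

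Libraries of the same number departed from their group means in common (correlation 0.39 across the 39 genes, 0.36 across all). What the numbers stand for is not given in the labels. With the replicate block edgeR called 2118 genes (10.7%), and 3 of the 39: Pola1 (-0.53, adjusted p 0.0181), Fen1 (0.47, 0.0294) and Ccne1 (0.44, 0.0483). It called 6 other replication genes, 3 G1 to S regulators, 1 checkpoint gene and 10 mitosis genes. With the replicate block and the length trend removed it called 1125 (5.67%), of the 39 only 1, Tyms (0.51, adjusted p 0.034), and 2, 1, 1 and 6 in the lists. For Tyms the edgeR adjusted p with the block alone was 0.0716. The length used for it, 6832 bases, is the union of all annotated exons.

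The median of the set changed sign only when untreated replicate 1 was left out. Leaving out 1 library moved the median of the 39 from 0.13 to between -0.12 and 0.57, the lower value without untreated replicate 1, and the number of the 39 whose groups did not overlap from 5 to between 5 and 39. The medians of the lists then ran from -0.21 to 0.30 (other replication genes), -0.081 to 0.29 (G1 to S regulators), -0.14 to 0.13 (checkpoint) and -0.32 to 0.35 (mitosis). The log2 fold changes that kept their sign ran, from without untreated replicate 1 to without untreated replicate 2, from 0.017 to 0.65 (Mcm2), 0.028 to 0.57 (Pola2), 0.11 to 0.41 (Pold1), -0.27 to -0.095 (Rfc1), 0.086 to 0.69 (Tyms), 0.21 to 0.71 (Ccne1), 0.029 to 0.57 (Chaf1a) and 0.020 to 0.77 (Chaf1b), besides Pola1 and Fen1. Ranges of the log2 fold changes that changed sign were -0.037 to 0.60 (Mcm3), -0.15 to 0.26 (Mcm4), -0.033 to 0.74 (Mcm5), -0.12 to 0.40 (Mcm6), -0.15 to 0.44 (Mcm7), -0.22 to 0.41 (Orc1), -0.22 to 0.26 (Orc6), -0.13 to 0.64 (Cdc6), -0.037 to 0.57 (Cdt1), -0.42 to 0.71 (Mcm10), -0.085 to 0.79 (Cdc45), -0.27 to 0.55 (Gins1), -0.16 to 0.58 (Gins2), -0.14 to 0.49 (Gins3), -0.030 to 0.35 (Gins4), -0.35 to 0.27 (Prim1), -0.11 to 0.47 (Prim2), -0.39 to 0.27 (Pole), -0.20 to 0.64 (Pcna), -0.12 to 0.44 (Rfc3), -0.21 to 0.59 (Rfc4), -0.13 to 0.59 (Rfc5), -0.0035 to 0.71 (Rpa2), -0.11 to 0.49 (Lig1), -0.11 to 0.42 (Rrm1), -0.40 to 0.66 (Rrm2), -0.054 to 0.62 (Tk1), -0.63 to 0.28 (Ccne2), -0.047 to 0.12 (E2f1).

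Some values near 0 also changed sign with scaling or trends. By total counts only these were -0.037 (Mcm4), -0.028 (Mcm10), -0.034 (Rrm2), -0.041 (E2f1), and medians of -0.0064 (G1 to S regulators) and -0.056 (checkpoint). With a filter of 1 CPM in 2 libraries they were -0.0037 (Mcm4), -0.0044 (Rrm2), -0.0067 (E2f1) and -0.020 (checkpoint median). With the length trend removed they were -0.067 (Gins1), -0.031 (Gins2), -0.032 (Gins4), 0.046 (Pole), -0.011 (Pcna), -0.027 (Rfc3), -0.036 (Rfc4), -0.083 (Rrm2), -0.037 (E2f1) and -0.0095 (checkpoint median). With the replicate block as well they were -0.032 (Gins1), -0.020 (Gins2), -0.029 (Gins4), 0.086 (Pole), -0.026 (Rfc3), -0.0084 (Rfc4), -0.011 (Rrm2), -0.037 (E2f1) and -0.0027 (checkpoint median). The replicate block alone gave -0.0019 (checkpoint median) and 0.014 (mitosis median). With the GC trend removed they were -0.019 (Mcm7), 0.087 (Orc6), 0.070 (Prim1), 0.20 (Ccne2), -0.15 (E2f1), 0.021 (Etaa1), and medians of 0.041 (other replication genes) and 0.11 (mitosis). The count without overlap has no value of its own for DESeq2 or the replicate block, whose levels are those of the RLE or TMM scaling.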
